A study of Mus musculus with 16 samples.

Results

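The genes described here encode the proteins of the cytosolic ribosome, measured by RNA-seq in neutrophils of mouse liver. Members were taken by gene symbol from the GENCODE annotation of mm10. They are the protein-coding genes named Rpl or Rps with a number, together with Rpsa, Rplp0, Rplp1, Rplp2 and Fau. Kinases of the Rps6k family, genes with the suffix -ps and mitochondrial ribosomal proteins were left out. Of 85 protein-coding genes with such a symbol, 81 had at least 10 estimated counts in at least 8 of the 16 libraries. They are 48 genes of the large subunit and 33 of the small subunit, among 54532 gene identifiers in the table. The 81 genes lie on 20 chromosomes, with at most 14 on any of them and 4 on the X chromosome.

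The neutrophils came from 8 C57BL/6 mixed bone marrow chimeras, numbered 2 to 9. Wild-type hosts were irradiated with about 1000 cGy and rebuilt for 8 weeks from marrow that was 50% wild-type and CD45.1-positive and 50% Ifngr1-/- and CD45.2-positive. All mice were given MC38 tumours, a colon carcinoma line, in the flank, received 1 week later aCD40, an agonist antibody against the receptor CD40, and gave liver cells 2 days after it. Each mouse gave 1 WT and 1 Ifngr1_KO library of sorted liver neutrophils, so that both genotypes shared liver, tumour and treatment. Ifngr1 encodes the ligand-binding chain of the receptor for interferon gamma. The donor of the marrow, the CD45 type and the gate of the sort were the same for all libraries of a genotype and cannot be told apart from it. There was no untreated group.

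Each ribosome holds 1 copy of nearly every ribosomal protein, and cells keep the supply of these proteins balanced. Their mRNAs typically begin with a cytosine and a run of pyrimidines, the 5′ terminal oligopyrimidine (TOP) motif, through which the kinase complex mTORC1 and the RNA-binding protein Larp1 control their translation as a group. Neutrophils make most of their ribosomes as dividing precursors in the marrow, and mature neutrophils are short-lived cells with little new ribosome production. The mammalian genome also carries many processed copies of these genes, most of them pseudogenes, which look so much like the mRNA that short reads can be hard to place.

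The TOP motif is the sequence feature these genes are best known for, and it is shown here because the members are otherwise linked only by their products. RefSeq start sites (build GRCm38.p6) were matched to 61 of the 81 members, with 73 start sites in all. The following stretches of 30 bases, written 5′ to 3′ on the strand of the gene, lie at the annotated starts of 8 members. Capitals mark the longest run of pyrimidines that begins with a C within 15 bases of the start.
Fau, chr19:6057934-6057963, plus strand: cgcgcccccaCTTCTTCCTCTTTCTTgact
Rps9, chr7:3704026-3704055, plus strand: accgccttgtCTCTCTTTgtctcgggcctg
Rplp2, chr7:141447637-141447666, plus strand: gcgtcagcgtCTTCCTTTCgccgccggacg
Rpl13a, chr7:45128724-45128753, minus strand: tgcgacaagaCCTCCTCCTTTCCCaggcgg
Rps6, chr4:86857349-86857378, minus strand: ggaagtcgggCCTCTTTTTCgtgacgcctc
Rps27, chr3:90213631-90213660, minus strand: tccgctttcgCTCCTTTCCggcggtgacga
Rps27l, chr9:66946064-66946093, plus strand: ctcctctccaCTCCTCCCCgccgcctctat
Rpl36al, chr12:69184035-69184064, minus strand: tcagttccgaCTTCCgctctgttcgtccct
The run was 16 bases long in Fau, 14 in Rpl13a and 5 in Rpl36al. A C followed by at least 6 pyrimidines within 15 bases of the start was present at 46.6% of member starts and at 17.0% of all 32851 promoters. With at least 4 further pyrimidines the shares were 64.4% and 40.95%. Within 5 bases of the start they were 32.9% and 6.48% for at least 6 further pyrimidines. Between 250 bases before and 50 after the start, CTTTCC occurred on either strand in 49.3% of member promoters and 26.6% of all promoters. TTTCCG, which shares TTTCC with it, occurred in 37.0% and 8.89%. A match describes the letters only.

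Libraries held 12.5 to 21.7 M estimated counts, with 16.9 ± 3.27 M in WT and 13.9 ± 1.50 M in Ifngr1_KO (mean ± SD, n = 8 each). Ifngr1 checked the labels, at 228 to 358 CPM (counts per 1000000 counts) in WT and 38.8 to 119 CPM in Ifngr1_KO. For most ribosomal protein genes, mouse 7 gave an Ifngr1_KO library far above the others. Values without mouse 7 are therefore given beside most fold changes. The 10 neutrophil markers were all detected, with a summed level of 33665 to 55942 CPM in WT and 28838 to 84242 CPM in Ifngr1_KO.

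Ribosomal protein transcripts were a small part of these libraries. All 81 genes together took 0.240 ± 0.0310% of counts in WT and 0.338 ± 0.127% in Ifngr1_KO (SD, n = 8 each). The WT libraries lay between 0.200 and 0.292%, and the Ifngr1_KO libraries between 0.240 and 0.642%. The share was higher in the Ifngr1_KO library in 7 of 8 mice, and the ranges of the genotypes overlapped. The ratio of the means was 1.41. Without mouse 7 the means were 0.239 ± 0.0332% and 0.294 ± 0.0324% (n = 7 each), a ratio of 1.23. In bulk RNA, fewer cells of a type and less RNA per cell cannot be told apart.

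The size of the difference varied from mouse to mouse. In mouse 7 the share was 0.250% in WT and 0.642% in Ifngr1_KO. In mice 3, 8 and 9 the Ifngr1_KO share was 1.49, 1.43 and 1.43 times the WT share. In mice 2, 5 and 6 the ratio was 1.10, 1.17 and 1.13. Mouse 4 had nearly the same share in both libraries, 0.241% and 0.240%. Large-subunit genes took 0.120% of WT and 0.167% of Ifngr1_KO counts, and small-subunit genes 0.120% and 0.170%, so both subunits shared the pattern. After TMM scaling the 81 genes summed to 2510 ± 400 CPM in the WT group and 3310 ± 1462 CPM in the Ifngr1_KO group. The scaled sum was higher in Ifngr1_KO in 6 of 8 mice. Without mouse 7 the scaled sums were 2499 ± 431 and 2812 ± 426 CPM (n = 7 each), a ratio of 1.13.

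**Figure D1:**
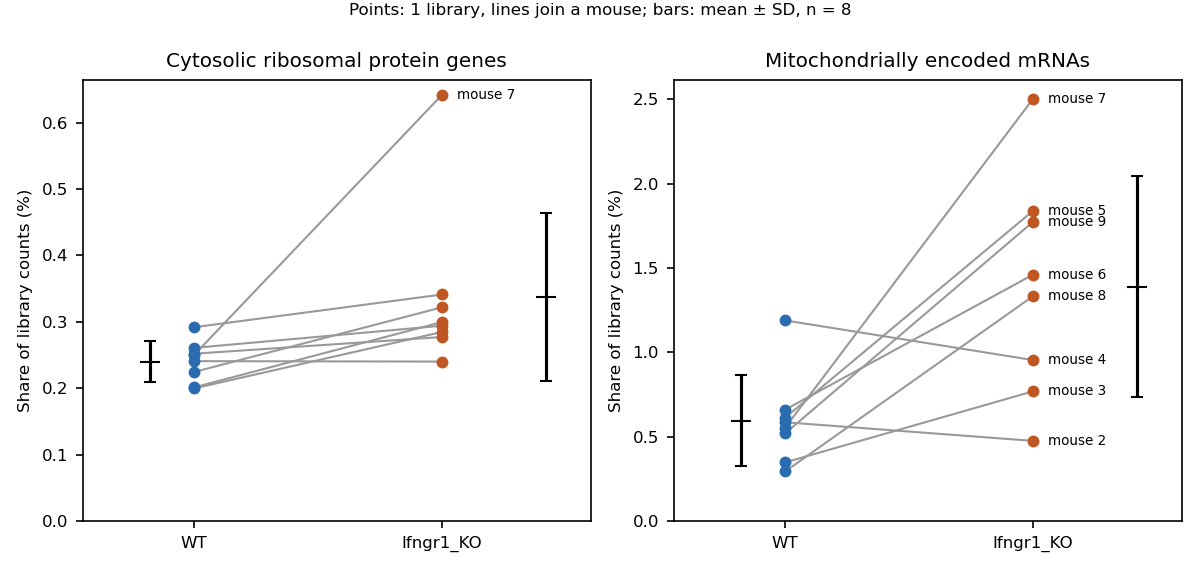
Share of library counts (y axis, percent) on the 81 ribosomal protein genes (left) and on mitochondrially encoded mRNAs (right) in the WT and Ifngr1_KO library of each mouse, joined by a line, with mean ± SD over 8 mice beside them. On the left, mouse 7 reaches 0.642% in Ifngr1_KO while the other Ifngr1_KO libraries stay at or below 0.341%, and on the right the Ifngr1_KO library is higher in 6 of 8 mice.

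Gene by gene, the mice fell into the same groups. The within-mouse difference is on the log2(CPM + 0.5) scale, Ifngr1_KO minus WT. Its median over the 81 members was 1.57 in mouse 7, where 80 members were higher in Ifngr1_KO. The median was 0.52 in mouse 8, 0.49 in mouse 9 and 0.44 in mouse 3, with 70 to 72 members higher. It was 0.03 in mouse 2, 0.01 in mouse 5 and 0.04 in mouse 6, where 41 to 44 of 81 members were higher. In mouse 4 it was -0.13, with 32 members higher. The same median over all tested genes lay between 0.00 and 0.02 in each mouse.

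**Figure D2:**
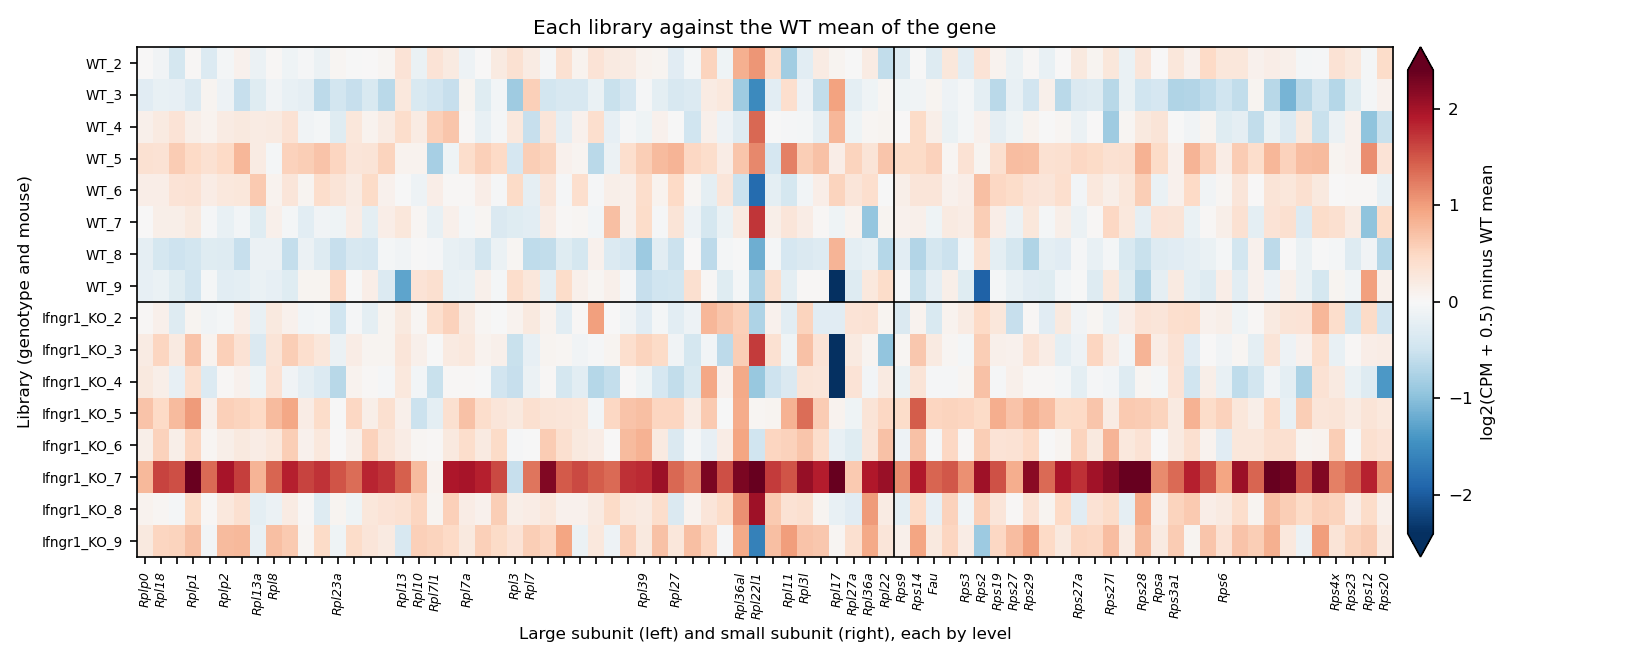
Level of 78 of the 81 genes (x axis, some named, large subunit left and small subunit right, each by level) in each library (y axis, genotype and mouse), as the difference in log2(CPM + 0.5) from the WT mean of that gene. Over all 81 members, drawn or not, the Ifngr1_KO library of mouse 7 holds the highest Ifngr1_KO value for 79, and the paired low values of Rps2 and Rpl13 in mouse 9 can be seen in both genotypes.

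No ribosomal protein gene passed the test between genotypes, which does not show that their levels were equal. Of 80 members tested (Rps12 had too few counts for the filter), edgeR's quasi-likelihood test with mouse as a block called 0 at an adjusted p under 0.05, beside 2.8% of all 9851 genes (0.477% higher and 2.32% lower in Ifngr1_KO). At an unadjusted p under 0.05 there were 18 members, 17 higher and 1 lower in Ifngr1_KO, where all genes gave 16.3% (7.69% higher and 8.57% lower). DESeq2 called 9 members, all higher, beside 10.8% of all genes. They were Rpl3l, Rps14, Rpl36al, Rplp1, Rps2, Rps3a1, Rpl18, Rps19 and Rpl8. limma-voom with quality weights called 3, with Rpl3l and Rps14 higher and 1 lower, beside 6.19% of all genes.

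The members leaned together in direction all the same. The log2 fold change of Ifngr1_KO over WT was above 0 for 77 of 80 members, beside 53.2% of all genes. Its median was 0.38, with quartiles of 0.22 and 0.52, and the median over all genes was 0.05. The median was 0.37 over the 48 large-subunit genes and 0.39 over the 32 small-subunit genes tested. The fold changes ran from -0.68 for Rpl17 to 1.12 for Rpl36al. In at least 7 of 8 mice, 23 members were higher in Ifngr1_KO, beside 10.2% of all genes, and 1 member was lower, beside 11.7%. For every member the ranges of the genotypes overlapped, while 1.65% of all genes did not overlap.

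The lean was smaller without mouse 7. In that fit the median over the members was 0.20 and 69 of 80 were above 0, beside 54.3% of all genes. Then 12 members had an unadjusted p under 0.05, beside 16.5% of all genes, and 1 was called, lower in Ifngr1_KO, where 4.12% of all genes were called. The median SD of log2(CPM + 0.5) over members was 0.36 among WT libraries, 0.61 among Ifngr1_KO libraries and 0.31 among Ifngr1_KO libraries without mouse 7.

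**Figure D3:**
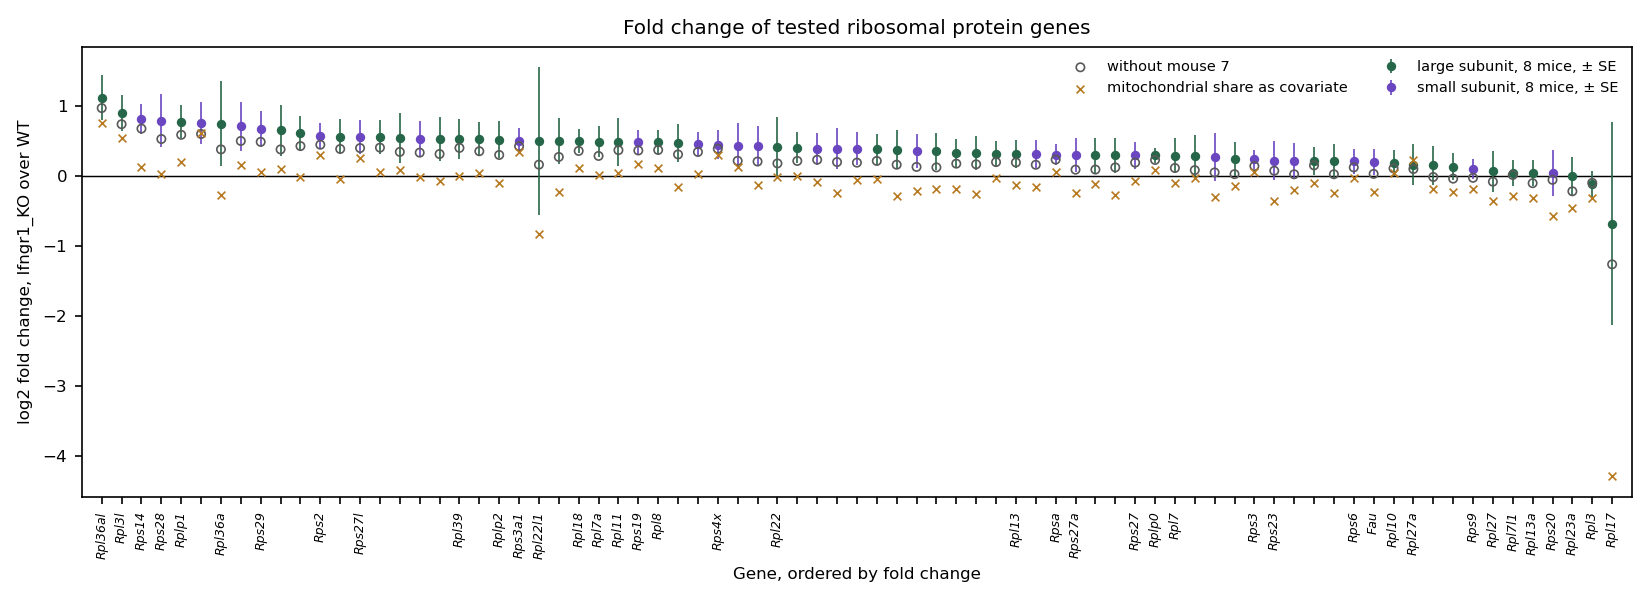
Log2 fold change of Ifngr1_KO over WT (y axis) with its SE for 77 of the 80 tested genes (x axis, ordered by fold change, some named), with open circles for the fit without mouse 7 and crosses for the fit with the mitochondrial share as a covariate. Over all 80 genes the medians of these 3 sets of values are 0.38, 0.20 and -0.065.

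The share of counts on mitochondrially encoded mRNAs also differed between the genotypes. It was 0.595 ± 0.272% in WT and 1.39 ± 0.656% in Ifngr1_KO, higher in Ifngr1_KO in 6 of 8 mice, and reached 2.50% in the Ifngr1_KO library of mouse 7. In mouse 4, the mouse with equal ribosomal protein shares, it was 1.19% in WT and 0.954% in Ifngr1_KO. In mouse 2 it went from 0.585% in WT to 0.475% in Ifngr1_KO, while the ribosomal protein share was 1.10 times as high in Ifngr1_KO. Mice 5 and 6 went from 0.612 to 1.84% and from 0.660 to 1.46%. Their ribosomal protein shares were 1.17 and 1.13 times as high in Ifngr1_KO. The median log2 difference of the members was 0.03 in mouse 2, 0.01 in mouse 5 and 0.04 in mouse 6. In mice 3, 7, 8 and 9 both shares were also higher in Ifngr1_KO. A link between the shares was not tested. With the mitochondrial share as a covariate in the fit, the median log2 fold change of the members was -0.065. In it 29 of 80 were above 0, beside 53.4% of all genes, and 0 were called, beside 0.944% of all genes. In that fit 1 member had an unadjusted p under 0.05, beside 8.29% of all genes. The median SE of the members grew from 0.24 to 0.30 in that fit. None of the 13 mitochondrially encoded mRNAs was called, although all 13 had an unadjusted p under 0.05, with a median log2 fold change of 1.19 (0.99 without mouse 7).

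Markers of other cells were looked at in the Ifngr1_KO library of mouse 7 and between genotypes. In that library the 10 precursor markers summed to 839 CPM, where the other Ifngr1_KO libraries reached 657 CPM and WT libraries 908 CPM. Its 8 erythroid and platelet markers summed to 891 CPM, beside at most 609 CPM in the other Ifngr1_KO libraries and 640 CPM in WT. Its 10 neutrophil markers summed to 84242 CPM, beside at most 55101 CPM in the other Ifngr1_KO libraries. S100a8, at 8878 to 44952 CPM over the Ifngr1_KO libraries, and S100a9, at 6398 to 24736 CPM, weigh most in that sum. The sum therefore does not show that all 10 markers were high there. Between genotypes, 3 of the 10 had a log2 fold change above 0, with a median of -0.24 (-0.18 without mouse 7) and 0 called. The sum of the 11 Kupffer cell and monocyte markers, 1471 CPM, was at its lowest there. Csf1r, at 331 to 1711 CPM over the Ifngr1_KO libraries, and Ly6c2, at 504 to 1106 CPM, made up nearly all of it. This sum does not show that all 11 markers were low there. Vsig4 was at 0 in all libraries and Clec4f at 0 in all Ifngr1_KO libraries. Hepatocyte, B cell, T and NK cell and endothelial markers summed to 4319, 109, 14.3 and 9.07 CPM in that library, beside at most 6441, 103, 14.7 and 10.9 CPM in the other Ifngr1_KO libraries.

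Between genotypes, the sums over several of these lists were lower in Ifngr1_KO, and each of these sums rested mostly on few genes. The Kupffer cell and monocyte markers summed to 2739 ± 354 CPM in WT and 2057 ± 371 CPM in Ifngr1_KO, higher in 0 of 8 mice. Of 7 tested, 1 was called, Ly6c2, which fell from 1212 ± 209.9 to 741 ± 194 CPM (adjusted p 0.0054 by edgeR). Ly6c2 and Csf1r, the latter at 1497 CPM in WT and 1287 CPM in Ifngr1_KO, made up nearly all of these sums. Of the other markers on this list, Timd4, Cd5l, Marco and Ccr2 had higher means in Ifngr1_KO. Clec4f, C1qa, C1qb and C1qc had lower means. The B cell markers summed to 224 ± 50.8 and 89.9 ± 12.6 CPM, again higher in 0 of 8 mice. Of 6 tested, 1 was called, Ighm, the immunoglobulin mu heavy chain, which fell from 198 ± 54.5 to 57.6 ± 10.3 CPM (adjusted p 1.7e-05 by edgeR). Ighm made up most of the B cell sums. Among the other B cell markers Cd79a alone had a lower mean in Ifngr1_KO. Sums of hepatocyte markers, at 4635 ± 1217 and 4206 ± 1242 CPM, were likewise higher in 0 of 8 mice, with 0 of 10 called. Hp made up most of these sums, at 4098 CPM in WT and 3683 CPM in Ifngr1_KO. Of the other hepatocyte markers, Alb, Apoa1, Apoa2, Ttr, Fgb and Cyp3a11 had higher means in Ifngr1_KO. Serpina1a, Serpina1c, Fga and Cyp2e1 had lower means. The precursor markers summed to 469 ± 236 and 397 ± 243 CPM, higher in Ifngr1_KO in 2 of 8 mice, with 0 of 5 called.

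Some granule enzymes on the precursor list, picked here after their values were seen, did not follow that sum, which rests mostly on Chil3 and Camp. Elane, Prtn3 and Mpo had few counts, 291, 744 and 196 over all 16 libraries. Elane, which encodes neutrophil elastase, was at 0 to 0.844 CPM in WT and 0.927 to 3.13 CPM in Ifngr1_KO. The groups did not overlap, and it was higher in 8 of 8 mice, with a log2 fold change of 2.22 (SE 0.71, adjusted p 0.142 by edgeR). Without mouse 7 it was 2.29. Prtn3, which encodes proteinase 3, was at 0 to 3.37 CPM in WT and 2.32 to 13.0 CPM in Ifngr1_KO, higher in 7 of 8 mice (adjusted p 0.339 by edgeR). Mpo, the myeloperoxidase gene, reached 0.858 CPM in WT and 6.06 CPM in Ifngr1_KO, whereas Ctsg and Ms4a3 stayed under 1 CPM in every library. Other precursor markers went the other way. Mki67 had a mean of 3.78 CPM in WT and 2.12 CPM in Ifngr1_KO, and Chil3, Camp and Ms4a3 also had lower means in Ifngr1_KO. Of the 5 precursor markers tested, 2 had a log2 fold change above 0, with a median of -0.15 (-0.22 without mouse 7). The part of these cells in the ribosomal protein levels was not tested.

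Levels of different members were compared as CPM per kilobase of transcript, averaged over all 16 libraries. They spanned a wide range, although the proteins are needed in nearly equal numbers. Among the highest were Rps9 at 378 CPM per kb, Rps14 at 295, Fau at 272 and Rplp0 at 245. Rps20 was lowest at 1.53 CPM per kb, next to Rps12 at 1.66, Rpl22 at 2.06, Rpl36a at 2.81 and Rpl27a at 4.89. These low ranks depend on the annotated length and on processed copies. The length was 3706 bases for Rps20, 2048 for Rpl22 and 1158 for Rpl27a, beside a median of 696.5 over members. Of the counts on gene and copies, the gene held 6.58% for Rps12, 32.1% for Rpl27a and 42.0% for Rpl36a. It held 64.1% for Rps20 and 99.9% for Rpl22. The median member lay at 27.4 CPM per kb. The 5 members with the most counts took 38.4% of all ribosomal protein counts, whereas 24 of 81 members were under 10 CPM.

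The order of levels was nearly the same in both genotypes. Across the 81 members the log2 level per kb in WT and in Ifngr1_KO had a Pearson correlation of 0.99 and a Spearman correlation of 0.98, and 9 of the top 10 were shared. These points share libraries and gene lengths, and are given as a description. Level also went with base composition, with a Pearson correlation of 0.45 between log2 level per kb and transcript GC content over the 81 members. With the union of all exons as the length, 7 of the top 10 remained in the top 10.

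**Figure D4:**
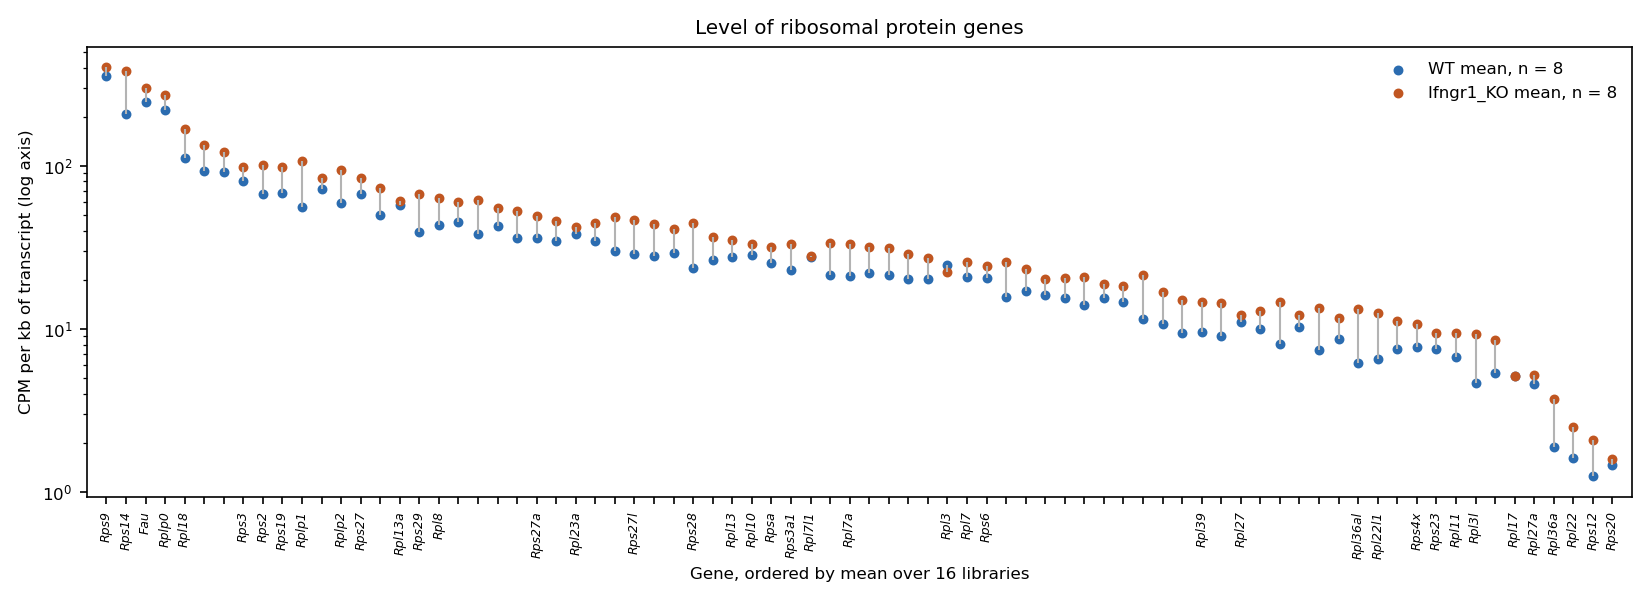
Mean level in CPM per kb of transcript (y axis, log scale) of 78 of the 81 genes (x axis, ordered by mean over 16 libraries, some named) in WT and Ifngr1_KO, n = 8 each. Levels of the genes drawn run from 378 for Rps9 down to 1.53 for Rps20, and the points of the genotypes lie close together beside that range.

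Among the most abundant members, Rps9, a small-subunit protein at the mRNA entry channel (chr7:3703993-3706897), had a lowest, median and highest level of 234, 288 and 397 CPM in WT and 226, 282 and 633 CPM in Ifngr1_KO. The genotypes overlapped almost fully apart from mouse 7, and its log2 fold change was 0.11 (SE 0.14, adjusted p 0.748 by edgeR, higher in 4 of 8 mice), and -0.023 without mouse 7.

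Rps14 came closest to a call. This protein of the small-subunit platform, whose reduced dose in blood precursors underlies the anaemia of a human myelodysplastic syndrome, lies on chromosome 18. Its lowest, median and highest levels were 73.0, 125 and 164 CPM in WT and 127, 191 and 454 CPM in Ifngr1_KO. It was higher in Ifngr1_KO in 7 of 8 mice, all but mouse 4, and 4 of 8 WT libraries lay under every Ifngr1_KO library. The fitted log2 fold change came to 0.82 (SE 0.22, adjusted p 0.0789 by edgeR). Without mouse 7 it was 0.68 (adjusted p 0.104), and with DESeq2 the adjusted p was 0.0038. Rps14 was the single member called by edgeR without mouse 4 (adjusted p 0.0495, beside 2.08% of all genes) and the single one called when library totals replaced TMM (adjusted p 0.0426, beside 2.7%). Once the mitochondrial share entered the fit, its log2 fold change was 0.14 (adjusted p 0.922). Its annotated span overlaps Ndst1, and the libraries do not mark strand.

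Of the proteins of the ribosomal stalk, which recruits the translation factors that hydrolyse GTP, Rplp1 showed the largest difference. Rplp1 (chr9:61913284-61914542) had a lowest, median and highest level of 19.4, 28.6 and 37.8 CPM in WT and 28.3, 41.1 and 142 CPM in Ifngr1_KO. It was higher in Ifngr1_KO in 8 of 8 mice, with a log2 fold change of 0.78 (SE 0.23, adjusted p 0.118 by edgeR), and 0.59 without mouse 7. Its partner Rplp2 was at 26.5 ± 5.47 CPM in WT and 42.2 ± 25.7 CPM in Ifngr1_KO, higher in 6 of 8 mice. Rplp0, the base of the stalk (chr5:115559467-115563727), ran from 154 to 238 CPM in WT and from 190 to 316 CPM in Ifngr1_KO. Its log2 fold change was 0.30 (SE 0.11, adjusted p 0.208), higher in 7 of 8 mice. That SE was the smallest of the 80 tested members, and the log2 fold change without mouse 7 was 0.23.

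Several members have known roles outside the ribosome. Rpl13a leaves the large subunit after interferon gamma in human myeloid cells and joins the GAIT complex, which silences inflammatory mRNAs. Its lowest, median and highest levels were 22.7, 25.2 and 43.2 CPM in WT and 21.8, 25.2 and 49.8 CPM in Ifngr1_KO. The groups had nearly equal medians, with a log2 fold change of 0.05 (SE 0.19, adjusted p 0.920 by edgeR), higher in 2 of 8 mice, and -0.099 without mouse 7. Rps6, the substrate of the S6 kinases downstream of mTORC1, was at 18.1 ± 3.05 CPM in WT and 21.4 ± 6.62 CPM in Ifngr1_KO. Rpl11, which binds Mdm2 and so links ribosome defects to p53, was at 4.89 ± 2.72 and 6.85 ± 3.48 CPM. None of these 3 passed the test.

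Other members of this kind had larger differences that also did not pass. Rps19, mutated in Diamond-Blackfan anaemia, was at 43.1 ± 10.7 CPM in WT and 62.6 ± 26.2 CPM in Ifngr1_KO, with a log2 fold change of 0.49 (SE 0.17, adjusted p 0.174), higher in 7 of 8 mice, and 0.37 without mouse 7. Rpsa, also known as a laminin receptor, was at 44.9 ± 10.3 and 56.3 ± 17.8 CPM, higher in 7 of 8 mice. Rps3, which also takes part in NF-kappaB signalling, was at 77.1 ± 11.8 and 93.7 ± 30.5 CPM, higher in 6 of 8 mice.

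A pair of members are made as fusions with ubiquitin or a relative of it. Fau, fused to a ubiquitin-like protein (chr19:6057844-6059524), had a lowest, median and highest level of 89.4, 119 and 176 CPM in WT and 93.8, 129 and 318 CPM in Ifngr1_KO. Its log2 fold change was 0.21 (SE 0.19, adjusted p 0.615), and 0.03 without mouse 7. Rps27a, fused to ubiquitin, was at 25.6 ± 5.01 and 35.3 ± 21.5 CPM. A stand-alone polyubiquitin gene, Ubb, pointed the other way and was lower in Ifngr1_KO in 8 of 8 mice. Ubb was at 3008 ± 438 and 2390 ± 320 CPM (log2 fold change -0.33, adjusted p 0.0590), and without mouse 7 it was called lower, with an adjusted p of 0.0066 by edgeR.

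Paralogs of ribosomal proteins included the members with the largest fold changes. Rpl36al, the autosomal counterpart of the X-linked Rpl36a, had a lowest, median and highest level of 2.19, 4.21 and 8.23 CPM in WT and 6.70, 8.55 and 22.7 CPM in Ifngr1_KO. The libraries overlapped through mice 2 and 5 of the WT group, with a log2 fold change of 1.12 (SE 0.32, adjusted p 0.101 by edgeR), higher in 7 of 8 mice, and 0.97 without mouse 7. Rpl3l, the striated-muscle paralog of Rpl3, ran from 3.59 to 7.38 CPM in WT and from 5.95 to 21.7 CPM in Ifngr1_KO. It was higher in 8 of 8 mice, with a log2 fold change of 0.90 (SE 0.26, adjusted p 0.101), and 0.74 without mouse 7. Rpl3 itself, a protein of the peptidyl transferase centre, was at 20.1 ± 6.04 CPM in WT and 18.3 ± 4.69 CPM in Ifngr1_KO, higher in 3 of 8 mice. Per kilobase, Rpl36al was at 9.73 and Rpl36a at 2.81 CPM per kb, although only 42.0% of the counts on Rpl36a and its copies fell on Rpl36a.

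The remaining paralogs were less even. Rps27l, a p53 target, was at 14.3 ± 4.37 CPM in WT and 23.3 ± 16.9 CPM in Ifngr1_KO, and its parent Rps27 at 26.8 ± 8.24 and 33.3 ± 10.3 CPM. Rpl7l1, a nucleolar relative of Rpl7, was at 36.0 ± 10.9 and 36.4 ± 8.45 CPM. Rpl22l1, whose mRNA is held down by Rpl22 in other mouse cells, was irregular in both genotypes, from 0.252 to 8.41 CPM in WT and from 0.386 to 28.7 CPM in Ifngr1_KO. It exceeded 5 CPM in mice 2, 4, 5 and 7 of the WT group and in mice 3, 7 and 8 of the Ifngr1_KO group. Of the 6 genes on the list of paralogs that were tested, which includes the pseudogene Rps4l, 0 were called and all 6 had a log2 fold change above 0. Their median was 0.53, and 0.28 without mouse 7. Of their 8 tested parents, 0 were called, and the median was 0.36, or 0.19 without mouse 7.

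Of members at 10 CPM or more, the 3 with the largest spread among WT libraries were Rps2, Rps28 and Rpl13. For Rps2 and Rpl13 mouse 9 lay far below the other mice. Rps2, which Prmt3 methylates (chr17:24718116-24721929), was at 15.4 CPM in WT and 33.0 CPM in Ifngr1_KO of mouse 9, whereas the other WT libraries lay at 51.5 to 101 CPM. Rpl13 was at 8.15 and 15.6 CPM in the WT and Ifngr1_KO libraries of mouse 9, whereas the other WT libraries lay at 19.2 to 27.6 CPM. Both genes were lowest in mouse 9 in both genotypes, and no other member was lowest there in both. With the counts of its copies added, Rpl13 was still at 17.9 and 35.1 CPM in mouse 9, beside 48.4 to 60.6 CPM in the other WT libraries. Between genotypes, Rps2 had a log2 fold change of 0.57 (SE 0.18, adjusted p 0.136), higher in 7 of 8 mice, and 0.45 without mouse 7. Rpl8 and Rpl7a were among the 3 members with the smallest spread among WT libraries. Rpl8, which lies near the peptidyl transferase centre, ran only from 35.1 to 46.4 CPM in WT, and from 36.1 to 107 CPM in Ifngr1_KO.

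Rpl17 had the lowest fold change of all and was singled out after its values were seen. It ranged from 0.00 to 8.62 CPM in the WT group and from 0.00 to 23.9 CPM in the Ifngr1_KO group, with estimates of 0 in the WT library of mouse 9 and the Ifngr1_KO libraries of mice 3 and 4. With its 59 matched copies added, the same 3 libraries were at 18.5, 20.8 and 11.7 CPM, inside or near the 14.5 to 24.1 CPM of the WT group. The log2 fold change of Rpl17 alone, -0.68, had an SE of 1.45.

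Copies took a sizeable part of the counts. By sequence (at least 90% identity over at least 50% of the copy) or by symbol, 1187 copies were matched to ribosomal protein genes, and 587 of them had counts. Of the 1187, 1181 are annotated as pseudogenes and 6 as protein-coding, among them Rpl10-ps3 with 11869 counts. Of the 81 members, 79 had at least 1 copy. Over members, a median of 88.7% of the counts of gene and copies fell on the gene itself. The share was over 90% for 40 members and under 50% for 17. It was 24.4% for Rpl10, 23.9% for Rpl27 and 27.3% for Rps23. For Fau it was 67.5%, with 15888 counts on the single copy Gm9843 beside 32961 on Fau. Levels of such members are uncertain, because reads of the gene can be placed on the copy.

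The count threshold for membership cut through this group of genes. Rpl5, which works with Rpl11, held 83 counts in all libraries together, while its copies held 2747, and it reached 10 counts in 2 libraries. Rpl12 held 137 counts beside 1288 on copies and reached 10 counts in 5 libraries, where the rule needs 8. Rps12 held 198 counts beside 2809 on copies and reached 10 counts in 8 libraries, just inside the rule. The other genes left out, Rpl10l and Rpl39l, held 0 and 11 counts. With all matched copies added to the members, the test still called 0 of 81, beside 2.83% of all genes. The median log2 fold change was then 0.35, beside 0.05 for all genes, and 79 of 81 were above 0, beside 53.1%.

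**Figure D5:**
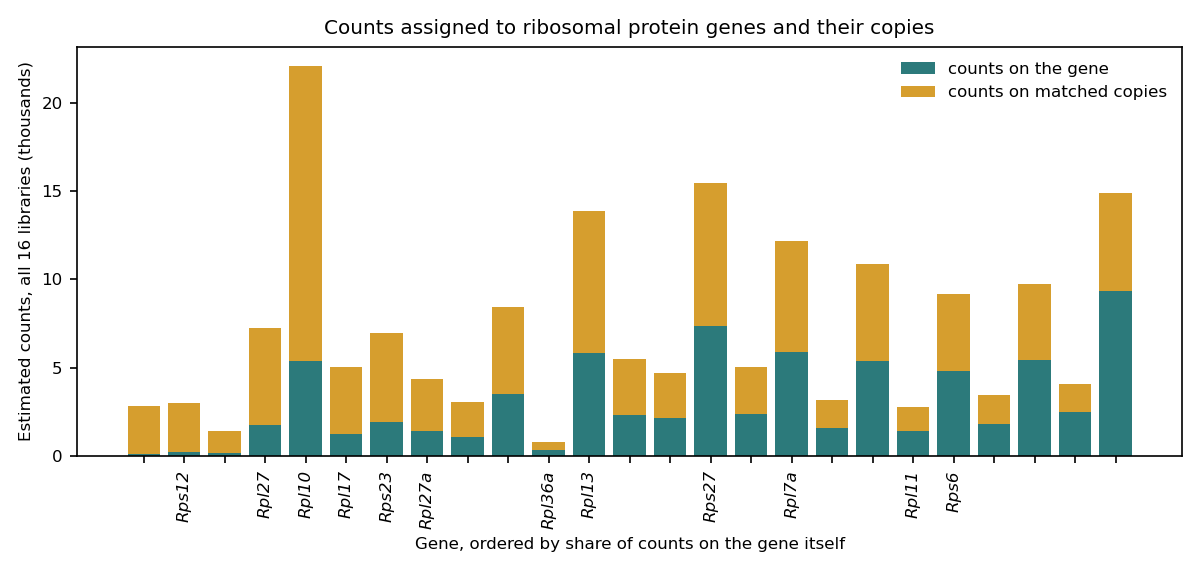
Estimated counts over all 16 libraries, in units of 1000 (y axis, starting at 0), on the gene and on its matched copies, for the 25 genes with the smallest share on the gene itself and at least 100 counts in all (x axis, some named). Rpl10 holds the tallest stack, with 16668 counts on copies beside 5393 on the gene, and for most of these genes the copies outweigh the gene.

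Genes of neighbouring functions were counted in the same fit, in which 2.8% of all genes were called and the median log2 fold change was 0.05 (also 0.05 without mouse 7). Of 16 other mRNAs of the TOP type, 0 were called and the median log2 fold change was 0.10 (0.05 without mouse 7). Among them the elongation factor Eef1a1 was at 224 ± 32.2 CPM in WT and 217 ± 30.5 CPM in Ifngr1_KO, and Eef2 at 156 ± 25.3 and 166 ± 40.3 CPM. None was called among 35 initiation factors (median 0.19, and 0.10 without mouse 7), 14 factors of elongation, release and recycling (-0.03 and -0.089) and 25 genes of mTOR signalling and TOP control (0.11 and 0.06). None was called among 16 RNA polymerase I genes either, where the median was 0.19, and 0.37 without mouse 7. Among 12 factors of export and late large-subunit maturation it was 0.21, and 0.41 without mouse 7, again with 0 called. There was also no call among 10 chaperones of ribosomal proteins (0.41, and 0.44 without mouse 7), 16 ribosome-bound or collision factors (0.39 and 0.31) and 5 partners in the GAIT complex (0.05 and 0.02).

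Single genes were called in a pair of lists, beside 0.477% of all genes called higher and 2.32% called lower. Of 79 nucleolar processing factors, 1 fell, Noc4l, a factor of small-subunit assembly, from 30.3 ± 7.83 CPM in WT to 6.44 ± 1.70 CPM in Ifngr1_KO. Its log2 fold change was -2.24 (SE 0.21, adjusted p 1.1e-04), lower in 8 of 8 mice. It was -2.30 without mouse 7 (adjusted p 2.0e-04) and -2.44 with the mitochondrial covariate (adjusted p 0.0045). Of 73 mitochondrial ribosomal proteins, 1 rose, Mrpl52, from 37.0 ± 11.7 to 77.5 ± 31.9 CPM, higher in 8 of 8 mice. Its log2 fold change was 1.04 (SE 0.20, adjusted p 0.0193). It was 0.89 without mouse 7 (adjusted p 0.0125) and 0.78 with the covariate (adjusted p 0.457). The median over these 73 genes was 0.26 (0.17 without mouse 7), beside 0.38 (0.20) for the cytosolic set, and the difference was not tested. The 29 tested genes with a ribosomal protein name and the suffix -ps had a median of 0.38, with 0 called and 25 above 0. Without mouse 7 it was 0.24.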

How the data were processed

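The deposited table holds estimated counts per Ensembl gene for 16 libraries, as whole numbers with no scaling. The authors used build mm10, DESeq2 1.22.1 and Salmon 0.14.2, per the submitters' processing notes. The transcript annotation was not given in the sources used here. RNA (1 ng) was primed with oligo-dT, amplified by SMART-Seq chemistry over 13 cycles and prepared with Nextera XT, per the labels' protocols. Such libraries have no molecular identifiers and no strand, so counts include PCR copies, and overlapping genes cannot be told apart. Names and positions came from the GENCODE annotation of mm10, in which 37 identifiers had no name.

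Counts were filtered by filterByExpr (9851 genes kept), scaled by TMM and tested in R 4.3.3 with edgeR 4.0.16 (glmQLFit robust, glmQLFTest), testing genotype with mouse as a block. The Benjamini-Hochberg adjustment ran over all 9851 genes, and calls needed an adjusted p under 0.05. SEs were taken as the absolute log2 fold change over the root of F. Levels are TMM-scaled CPM, as means ± SD over 8 mice. Level per kb used the median length of protein-coding transcripts. Differences within a mouse used a pseudocount of 0.5 CPM. The SEs come from the fit over 8 mice and include variation of the difference among mice, besides counting error. The test was tried on simulated counts.

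The series design text states that each mouse gave both libraries. Deviations from the group means correlated within mice by 0.16 on average (range 0.032 to 0.383) and between mice by -0.021, and 4 of 8 WT libraries had their highest correlation within their mouse. The block stayed in, as the animal is the shared source.

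Alternatives were no block, other scalings and filters, DESeq2 1.42.0, limma 3.58.1 (voom with quality weights), the mitochondrial share as a covariate, pseudogene counts added to members, and leaving out each mouse. Adding all copies matched by sequence, leaving out the 5 most counted members from the share, and searching 5 bases around start sites were added after seeing the data. Members and gene lists were chosen with earlier results of these data known, so no p is given for a list. Named members were those called, the 5 highest and 5 lowest per kb, the 4 largest and 4 smallest fold changes and the 3 largest and 3 smallest WT spreads at 10 CPM or more, paralogs and their parents, members with roles outside the ribosome, and the stalk. In other lists up to 4 called genes were named, or up to 2 of the highest level. Some genes that this rule names, 3 of them members, are not reported here by name and not drawn; counts and medians over members include them.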

Additional observations from a re-analysis of the deposited data

Results flagged for a closer look

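In groups of 8 libraries, 78 sets of values were searched for a highest or lowest value that lay far from its neighbour relative to the whole range, and 32 were found. Chance gives about 1 in 20 for a single set of normally distributed values. The sets share the same libraries, so the flags are not separate observations and their number is not set against that rate. Of the 32 found, 28 were the Ifngr1_KO library of mouse 7 as the highest value. Its ribosomal protein share was 0.642% of counts, where the next Ifngr1_KO library had 0.341%. Its large-subunit share was 0.311% and its small-subunit share 0.331%.

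Among small-subunit genes, that library was far above the other Ifngr1_KO libraries for Rps9 (633 CPM), Fau (318 CPM), Rps2 (250.03 CPM), Rps3 (163 CPM) and Rps19 (122 CPM). The same held for Rpsa (97.2 CPM), Rps27a (85.7 CPM), Rps29 (67.2 CPM), Rps27l (63.7 CPM), Rps28 (47.0 CPM), Rps4x (17.8 CPM) and Rps12 (3.05 CPM).

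Among large-subunit genes it was far above the others for Rplp1 (142 CPM), Rpl8 (107 CPM), Rplp2 (104 CPM), Rpl7a (76.5 CPM), Rpl23a (59.5 CPM), Rpl13 (56.0 CPM) and Rpl7 (49.1 CPM). It was likewise for Rpl22l1 (28.7 CPM), Rpl36al (22.7 CPM), Rpl3l (21.7 CPM), Rpl39 (20.6 CPM), Rpl22 (14.8 CPM) and Rpl36a (4.66 CPM).

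The remaining 4 values were in WT libraries. Mouse 5 was high for Rpl11 (10.9 CPM) and Rpl7a (25.9 CPM), mouse 6 was high for Rpl13a (43.2 CPM), and mouse 9 was low for Rpl13 (8.15 CPM).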

How the results depend on the processing

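Fits without the replicate block (mouse) called 0 members, with a median log2 fold change of 0.48, and changed no call of a named member. The count of members called was 1 with library totals (Rps14), 9 with DESeq2 and 3 with limma-voom, and 0 to 1 when each mouse was left out, with medians of 0.20 to 0.47. With library totals the median was 0.50 for members and 0.16 for all genes, which had 0.05 with TMM. The median turned to -0.065 with the mitochondrial share as a covariate.

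That covariate also turned Rps9 (-0.18), Fau (-0.23), Rpl36a (-0.27), Rpl22 (-0.0099), Rps20 (-0.57), Rpl23a (-0.46), Rpl13a (-0.31), Rpl22l1 (-0.83), Rpl7l1 (-0.28), Rps27 (-0.062), Rpl7 (-0.092), Rps27a (-0.24), Rps6 (-0.018), Rplp2 (-0.097) and Rpl13 (-0.13). limma-voom turned Rpl23a (-0.079) and Rpl13a (-0.061). Rpl23a was -0.019 with no filter and -0.012 with named pseudogenes added. Leaving out 1 mouse turned Rps9 (range -0.023 to 0.16), Rps20 (-0.074 to 0.20), Rpl23a (-0.22 to 0.099), Rpl13a (-0.099 to 0.12), Rpl22l1 (-0.078 to 1.08) and Rpl7l1 (-0.027 to 0.22). None of these was called in either direction. The cause was not tested.

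The share of counts kept its direction under all alternatives run, with a difference of 0.0555 to 0.150 percentage points. Members near 1 CPM rest on few counts: Rps12 had 0 to 36 counts per library, so differences in it were not detectable at this depth.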
